A study of Mus musculus with 12 samples.

Results

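Imprinted genes are transcribed mainly from the copy inherited from 1 parent, a choice set in the germ line by DNA methylation of control regions and kept in the body's cells. Many of them act on fetal and placental growth, and they fall into opposing sets, such as the growth factor Igf2 and its clearing receptor Igf2r. In many tissues several of these genes are turned down after birth, so a cultured kidney cell may hold only some of them. The 10 genes described here were Peg10, Sgce, Peg3, H19, Igf2, Igf2r, Cdkn1c, Grb10, Plagl1 and Meg3, chosen by symbol from the 48034 genes of the deposited expression table. All 10 were listed there. The values sum both parental copies, so nothing below speaks of which copy was read.

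The cells were the 53a subclone of IMCD3, an established mouse line of collecting duct origin, so all libraries come from 1 clone. As known of the study, this clone carries a mifepristone-inducible dominant-negative mutant of a transcription factor, in cells that keep the normal gene. The 4 groups of 3 libraries each (A, B and C) were vehicle alone, vehicle with 100 mM added NaCl, mifepristone alone, and mifepristone with 100 mM added NaCl. No group received mifepristone without carrying the mutant, so the drug and the mutant cannot be told apart. Whether the 3 libraries of a group were separate cultures is not in the labels, so a p-value here covers library spread that may be only technical.

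Levels are FPKM, fragment counts scaled for transcript length and library size. Reads recovered from these values summed to between 41940955 and 49270776 per library. Tests were run on the 14044 genes with an FPKM of 1 or more in 3 or more libraries, and 6 of the 10 imprinted genes were among them. Differences are log2 of FPKM + 0.5, tested in limma with Benjamini-Hochberg adjustment over all tested genes and called at an adjusted p under 0.05. Of 15 genes of collecting duct and tubule epithelium 12 were tested. Krt8 (115 to 311 FPKM), Krt18, Krt19, Epcam and Cdh1 were strong in every library. Aqp2 (0 to 6 reads), Aqp3 and Gata3 were below 1 FPKM throughout. Also on this list, Scnn1a stood at 0.341 to 2.24 FPKM and Tfcp2l1 at 1.29 to 4.24, and both were tested. Cdh16, Pax8, Pax2 and Hsd11b2 were called in all 4 single-treatment comparisons. Cdh16 averaged 188 FPKM in vehicle, 676 with NaCl, 31.6 with mifepristone and 121 with both, Pax8 27.6, 57.8, 18 and 42.6, Pax2 8.84, 52.9, 6.50 and 32.8, and Hsd11b2 1.56, 0.397, 7.90 and 9.54. Of 5 endothelial genes 0 were tested, and of 6 leukocyte genes 1 was, Cd68 (2.65 to 5.69 FPKM, higher by 0.33 with mifepristone). Their part in the results below was not tested. Vehicle A and mifepristone C stood apart from their groups along transcript length, with long transcripts lower (Spearman rho -0.44 and -0.51 over 13916 genes, against -0.29 to 0.46 in the other libraries). Mifepristone C was also the lowest mifepristone library for Peg10, Peg3, Igf2r, Grb10 and Plagl1. Values without both libraries are given where they change a call.

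Sequence upstream of 4 of these genes is shown. The authors' table marks a ChIP peak near Igf2r, Grb10 and Plagl1, and Peg3, which has no mark, was added after the search because its window held a match. The windows are RefSeq promoter windows of 300 bases on GRCm38.p6, from 250 bases before to 50 after an annotated start. They were searched on both strands for TGCCGC, the hexamer that the imprint-keeping protein ZFP57 binds, and TGGAAA, the core of sites for the tonicity factor NFAT5. Capitals mark a match, here read on the other strand in each case; the Igf2r window (chr17:12769657-12769956, minus strand) held neither motif.
Peg3: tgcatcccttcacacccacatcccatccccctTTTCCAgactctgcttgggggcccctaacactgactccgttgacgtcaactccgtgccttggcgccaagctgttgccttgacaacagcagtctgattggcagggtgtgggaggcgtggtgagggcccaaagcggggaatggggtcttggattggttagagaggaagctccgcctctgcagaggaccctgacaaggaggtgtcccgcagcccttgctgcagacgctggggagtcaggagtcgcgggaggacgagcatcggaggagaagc
Igf2r: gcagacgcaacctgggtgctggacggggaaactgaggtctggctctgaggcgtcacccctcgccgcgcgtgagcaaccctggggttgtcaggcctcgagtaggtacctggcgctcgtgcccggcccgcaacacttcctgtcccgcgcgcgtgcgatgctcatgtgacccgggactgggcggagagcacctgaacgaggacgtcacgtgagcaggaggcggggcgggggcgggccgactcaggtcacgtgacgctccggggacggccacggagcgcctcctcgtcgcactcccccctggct
Grb10: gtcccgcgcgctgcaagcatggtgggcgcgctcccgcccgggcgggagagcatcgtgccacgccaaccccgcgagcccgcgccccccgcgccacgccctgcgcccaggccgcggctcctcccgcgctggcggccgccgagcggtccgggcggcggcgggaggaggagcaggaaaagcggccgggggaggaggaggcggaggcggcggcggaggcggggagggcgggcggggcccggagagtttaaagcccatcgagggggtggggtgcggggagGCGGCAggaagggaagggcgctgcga
Plagl1: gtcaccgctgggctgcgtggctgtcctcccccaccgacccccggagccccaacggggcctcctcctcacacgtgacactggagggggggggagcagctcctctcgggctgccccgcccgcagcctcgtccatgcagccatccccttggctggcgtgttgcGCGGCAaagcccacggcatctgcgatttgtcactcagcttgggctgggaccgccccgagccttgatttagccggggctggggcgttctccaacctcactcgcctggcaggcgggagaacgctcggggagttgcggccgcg
The Peg3 window (chr7:6730370-6730669, minus strand) held the NFAT5 core, which 21.4% of 32851 windows hold. The Grb10 (chr11:12037371-12037670, minus strand) and Plagl1 (chr10:13090582-13090881, plus strand) windows held the ZFP57 hexamer, which 11.6% of windows hold, as did 1 window each of Igf2 and Meg3. In all, 6 of the imprinted genes had 11 windows in the table. No window was found for Peg10, Sgce, H19 and Cdkn1c. CpG dinucleotides numbered 45 and 9 in the Grb10 windows, 34 in Igf2r, 26 in Plagl1, 13 in Peg3, 2, 14, 24 and 7 in Igf2, and 13 and 1 in Meg3, against a median of 7 over all windows.

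Peg10 rose with mifepristone more than any other of the 10 genes, and it lost nearly all of that rise when NaCl was present. It is a paternally expressed gene derived from a retrotransposon, it makes a gag-like protein, and the mouse placenta needs it. It lies at chr6:4747306-4760517 on the plus strand of GRCm38, with 6667 exonic bases. In vehicle its FPKM was 11.1, 12.5 and 12.4 in libraries A, B and C, and in vehicle with NaCl 6.46, 7.02 and 6.87. With mifepristone it was 125, 121 and 92.0, and with mifepristone and NaCl 11.6, 10.9 and 11.1. Every mifepristone library without NaCl stood above every other library, and the libraries with both treatments overlapped those of vehicle alone.

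Peg10 averaged 12 ± 0.768 FPKM in vehicle and 113 ± 17.9 with mifepristone (SD, n = 3 each). The rise was 3.16 on the log2 scale (SE 0.097, limma adjusted p = 4.29e-10), rank 19 from the highest of 14044 genes, of which 59.7% were called. Under NaCl the same contrast was 0.69 (11.2 ± 0.329 against 6.78 ± 0.290, adjusted p = 9.86e-05), in a comparison where 58.7% of genes were called. The mifepristone effect thus differed between the salt conditions, with an interaction of -2.48 (SE 0.137, adjusted p = 5.07e-07, 95% interval -2.78 to -2.17), rank 8 from the lowest, where 31.1% of genes were called. Seen from the salt side, Peg10 fell by 0.78 with NaCl in vehicle cells (adjusted p = 4.93e-05, 56.7% of genes called) and by 3.26 in mifepristone cells (adjusted p = 3.93e-10, 58.7% called), where only 1 of 14044 genes had a lower value. These contrasts share groups and are not independent of one another.

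In the order of Peg10 levels, vehicle with NaCl was lowest, mifepristone alone highest, and the other groups lay between. Mifepristone with NaCl and vehicle alone did not differ beyond their spread (-0.09, 95% interval -0.31 to 0.12, adjusted p = 0.407). Without vehicle A and mifepristone C together that difference was called, at -0.15 (adjusted p = 0.00761). Library quality weights also called it, at -0.15 (adjusted p = 0.00235). Over all 22 alternatives it ran from -0.15 to -0.04, with adjusted p from 0.00235 to 0.754. In bulk libraries fewer cells with the RNA and less RNA per cell cannot be told apart. The authors' deposited table gives Peg10 a log2 fold change of 3.19 for the mutant, -0.82 and -3.29 for NaCl in control and mutant cells, and an interaction of -2.50. It marks no ChIP peak near Peg10.

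**Figure D1:**
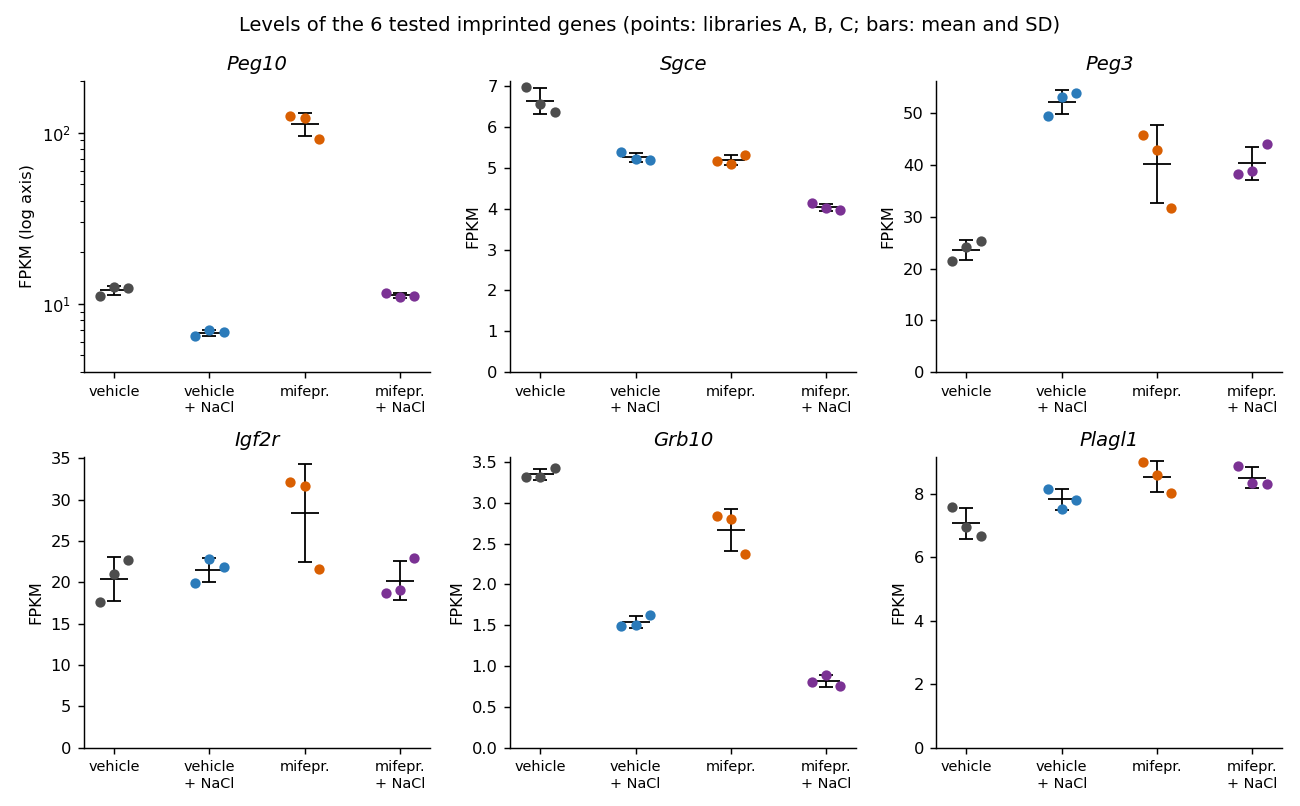
FPKM of the 6 tested imprinted genes (vertical axes, logarithmic for Peg10 and linear from 0 for the others) in the 4 groups (horizontal axes); points are libraries A, B and C, bars the mean and SD. Peg10 stands at 92.0 to 125 FPKM with mifepristone alone and at 6.46 to 12.5 in the other 9 libraries, while Sgce steps down from 6.64 to 4.04 FPKM on average.

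Sgce fell with each treatment, by nearly the same amount each time. It encodes epsilon-sarcoglycan, a membrane glycoprotein whose loss in humans causes myoclonus-dystonia, and it is paternally expressed like Peg10. It lies at chr6:4674350-4747207 on the minus strand, and its annotated start is 99 bases from that of Peg10, pointing away from it. Its FPKM was 6.98, 6.58 and 6.36 in vehicle, 5.39, 5.21 and 5.19 in vehicle with NaCl, 5.16, 5.11 and 5.33 with mifepristone, and 4.13, 4.03 and 3.97 with both. The 3 vehicle libraries were the highest and the 3 libraries with both treatments the lowest, while the single treatments overlapped each other.

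The Sgce change with mifepristone was -0.32 without NaCl (SE 0.040, adjusted p = 3.25e-05) and -0.34 with it (adjusted p = 2.01e-05). With NaCl it was -0.31 in vehicle cells (adjusted p = 6.26e-05) and -0.33 in mifepristone cells (adjusted p = 3.23e-05). The interaction was -0.02 (95% interval -0.14 to 0.11, adjusted p = 0.824), and the single treatments differed by -0.02 (95% interval -0.10 to 0.07, adjusted p = 0.754). Both treatments together against vehicle gave -0.65 (SE 0.040, adjusted p = 5.43e-08). So 2 genes whose starts are 99 bases apart moved in opposite directions with mifepristone and in the same direction with NaCl.

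The other genes around Peg10 showed no change of its size. Within 1000 kb on either side 39 genes are listed and 8 were tested, Peg10 and Sgce included; all 8 are given here, which was decided after their values were seen. Casd1, a sialic acid acetyltransferase gene that starts at -146.5 kb from the Peg10 start, changed by -0.44 with mifepristone (17.4 to 12.7 FPKM, SE 0.035) and by 0.12 with NaCl on top of it. Ppp1r9a, which encodes the actin-binding protein neurabin and is imprinted in the placenta, changed by -0.42 (4.63 to 3.37 FPKM, SE 0.130) and by -0.84. The vesicle transport gene Bet1, at -660.3 kb, changed by -0.28 and 0.21.

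Farther on the other side stand the predicted gene Gm44250 and the paraoxonase genes Pon3 and Pon2. With mifepristone Pon3 changed by 0.52 (14.5 to 21 FPKM, SE 0.068), Gm44250 by 0.32 and Pon2 by 0.14 (adjusted p = 0.0361). With NaCl in mifepristone cells Pon2 changed by -0.80 (10.7 to 5.95 FPKM, SE 0.052), while Pon3 at 0.07 and Gm44250 at -0.00 were not called. Mifepristone without NaCl changed all 8 tested genes, 4 up and 4 down, at 59.7% of all genes called. Peg10 was the only one of the 8 past 1 on the log2 scale in either contrast.

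**Figure D2:**
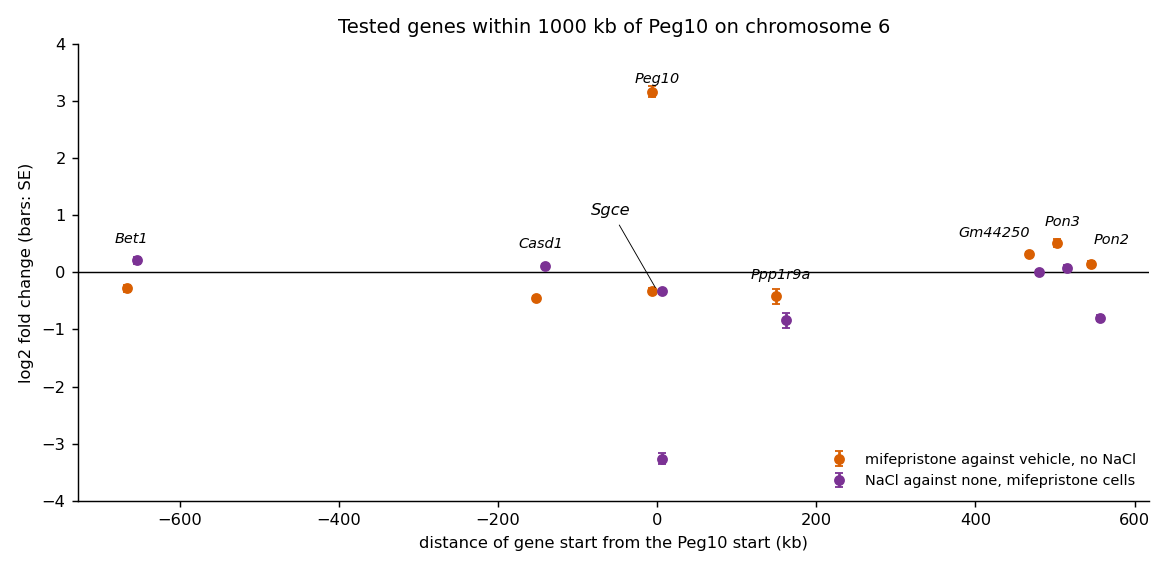
Log2 fold change with its SE (vertical axis) of the 8 tested genes within 1000 kb of Peg10, placed by the distance of their starts from the Peg10 start in kb (horizontal axis), for mifepristone against vehicle without NaCl and for NaCl in mifepristone cells. Peg10 lies at 3.16 and -3.26, and the 7 other genes lie between -0.84 and 0.52.

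Peg3 rose with either treatment alone, and the treatments together did not add up. It encodes a large zinc finger protein, is paternally expressed, and lies at chr7:6703892-6730431 on the minus strand. Its FPKM was 21.4, 24.1 and 25.3 in vehicle, 49.5, 53.2 and 53.9 in vehicle with NaCl, 45.9, 42.9 and 31.7 with mifepristone, and 38.3, 38.8 and 44.0 with both. Vehicle was the lowest group and NaCl alone the highest, with no overlap between either and the rest, and the mifepristone groups overlapped each other.

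On average Peg3 went from 23.6 ± 2.0 FPKM in vehicle to 52.2 ± 2.39 with NaCl and 40.2 ± 7.46 with mifepristone (SD, n = 3 each). The NaCl rise was 1.13 (SE 0.120, adjusted p = 1.41e-05) and the mifepristone rise 0.74 (SE 0.120, adjusted p = 0.000278). In mifepristone cells NaCl gave 0.02 (95% interval -0.24 to 0.29, adjusted p = 0.891), so the interaction was -1.11 (SE 0.169, adjusted p = 0.000672). Under NaCl mifepristone lowered Peg3, by -0.37 (adjusted p = 0.0208). That call was lost when any 1 of vehicle NaCl B, vehicle NaCl C, mifepristone NaCl A or mifepristone NaCl B was left out (adjusted p from 0.0574 to 0.0685). Mifepristone alone stood below NaCl alone by -0.39 (adjusted p = 0.0144), and by -0.23 without mifepristone C.

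Grb10 fell with each treatment and fell furthest with both. It encodes an adaptor protein that binds the insulin and IGF receptors and damps their signal, is expressed from the maternal copy in most tissues, and lies at chr11:11930508-12038683 on the minus strand. Its FPKM was 3.32, 3.31 and 3.43 in vehicle, 2.84, 2.80 and 2.37 with mifepristone, 1.49, 1.5 and 1.62 with NaCl, and 0.802, 0.893 and 0.751 with both. No groups overlapped, and each neighbouring pair in this order differed (adjusted p from 6.93e-06 to 0.0033).

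The Grb10 change with NaCl was -0.92 in vehicle cells (SE 0.066, adjusted p = 6.15e-07) and -1.27 in mifepristone cells (adjusted p = 3.38e-08). With mifepristone it was -0.28 without NaCl (adjusted p = 0.0033) and -0.63 with it (adjusted p = 8.64e-06). The interaction was -0.35 (SE 0.094, adjusted p = 0.0164), and -0.57 when recovered reads were fitted instead of FPKM. Both treatments against vehicle gave -1.55 (3.35 ± 0.0696 to 0.815 ± 0.0716 FPKM). Adding 0.5 to levels this near 1 understates the fold changes. In the authors' deposited table the Grb10 changes are -0.33 for the mutant and -0.59 for the interaction (adjusted p = 1.0 for each). For NaCl they are -1.12 and -1.70 in control and mutant cells (adjusted p = 3.93e-39 and 1.29e-78). These columns may rest on unlike tests, so their p-values are not compared.

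Igf2r, the receptor that carries IGF2 and lysosomal enzymes to the lysosome, had the widest standard error of the 6, at 0.148. It is maternally expressed in the mouse and lies at chr17:12682406-12769664 on the minus strand. Its FPKM was 17.6, 21 and 22.7 in vehicle, 19.9, 22.8 and 21.8 with NaCl, 32.1, 31.6 and 21.6 with mifepristone, and 18.7, 19.1 and 22.9 with both. Mifepristone A and B stood above every other library, and mifepristone C lay among the other groups.

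The Igf2r rise with mifepristone was 0.45 (SE 0.148, adjusted p = 0.0209), although the groups overlapped. It was lost when vehicle A, mifepristone A or mifepristone B was left out (adjusted p from 0.0807 to 0.0823) and without the expression filter (adjusted p = 0.0514). Over all 22 alternatives the rise ran from 0.35 to 0.64, with adjusted p from 0.000474 to 0.0823. NaCl in mifepristone cells gave -0.46 (adjusted p = 0.0193). That call was lost when mifepristone A or B or either of the A and B libraries with both treatments was left out (adjusted p from 0.0623 to 0.0737). Its range over the alternatives was -0.65 to -0.37, with adjusted p from 0.000114 to 0.0737. Under NaCl mifepristone gave -0.09 (adjusted p = 0.628), and in vehicle cells NaCl gave 0.08 (adjusted p = 0.678). The interaction was -0.54 (adjusted p = 0.0718), called without mifepristone C at -0.73 (adjusted p = 0.00279) and without vehicle A and mifepristone C at -0.62 (adjusted p = 0.00288).

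Airn, the paternally expressed antisense RNA whose transcription silences the paternal copy of Igf2r, was also tested. Its FPKM was 0.747, 0.954 and 1.06 in vehicle, 0.756, 0.788 and 0.857 with NaCl, 2.37, 2.34 and 1.45 with mifepristone, and 0.828, 0.797 and 1.03 with both. All 3 mifepristone libraries stood above the other 9. Airn rose by 0.83 with mifepristone (SE 0.143, adjusted p = 0.000449), fell by 0.86 with NaCl in mifepristone cells (adjusted p = 0.000353) and had an interaction of -0.74 (adjusted p = 0.0174). So Airn and Igf2r rose together with mifepristone, with mifepristone C the lowest of its group for both. The annotated exons of the 2 genes share 0 bases, but they overlap on opposite strands, and the use of strand in counting is not stated, so unspliced reads of the 2 cannot be told apart.

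Plagl1 changed by at most 0.26 in the 4 single-treatment comparisons. It encodes a zinc finger transcription factor that restrains growth in culture, is paternally expressed, and lies at chr10:13060504-13131694 on the plus strand. Its FPKM was 7.60, 6.95 and 6.67 in vehicle, 8.17, 7.53 and 7.80 with NaCl, 9.02, 8.61 and 8.02 with mifepristone, and 8.89, 8.36 and 8.30 with both. The mifepristone libraries, with or without NaCl, all stood above those of vehicle alone.

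Plagl1 rose by 0.26 with mifepristone (SE 0.057, adjusted p = 0.00234). Under NaCl the value was 0.11 (adjusted p = 0.106), and with NaCl in vehicle cells it was 0.14 (adjusted p = 0.0569). Both of these passed the threshold without vehicle A and mifepristone C (adjusted p = 0.0293 and 0.00507). They also passed with median-ratio scaling (0.0479 and 0.0269), library quality weights (0.0103 and 0.000111) and recovered reads fitted instead of FPKM (0.0333 and 0.0199). Over all 22 alternatives the adjusted p ran from 0.0103 to 0.291 and from 0.000111 to 0.187, so these calls depended on the processing. In mifepristone cells NaCl gave -0.00 (95% interval -0.13 to 0.12). The interaction was -0.14 (adjusted p = 0.2), and -0.24 without vehicle A and mifepristone C (adjusted p = 0.0143). Mifepristone alone against NaCl alone gave 0.12 (adjusted p = 0.0884), and 0.16 without those libraries (adjusted p = 0.00983).

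**Figure D3:**
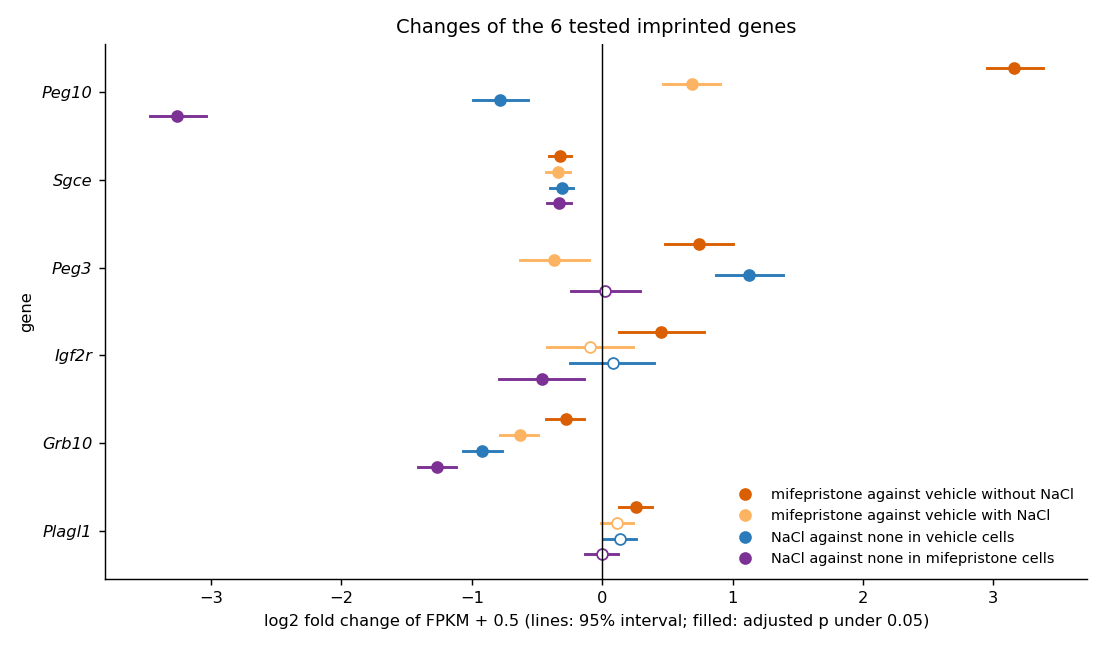
Log2 fold changes of FPKM + 0.5 with 95% intervals (horizontal axis) of the 6 tested imprinted genes (vertical axis) in the 4 single-treatment comparisons; filled circles have an adjusted p under 0.05. Peg10 spans 3.16 to -3.26, the 4 values of Sgce lie between -0.34 and -0.31, and those of Grb10 are all below 0.

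The other 4 genes were at or near the limit of detection. H19, a maternally expressed long noncoding RNA beside Igf2 (chr7:142575529-142578143), had 14, 11 and 17 reads in vehicle, 17, 7 and 5 with NaCl, 10, 8 and 18 with mifepristone, and 19, 9 and 12 with both, which is 0.0446 to 0.175 FPKM. These groups overlapped throughout. Cdkn1c, a maternally expressed inhibitor of cyclin-dependent kinases (chr7:143458339-143461050), had 7 reads in all 12 libraries together, 3 of them in mifepristone B, and 0 in 8 libraries. Meg3, a maternally expressed long noncoding RNA (chr12:109541001-109571726), had 1 read, in vehicle NaCl A. A count of 0 allows up to 3 reads, which is 0.0609 to 0.0715 CPM (reads scaled to library size) and covers counting error only, so for both genes no difference was detectable at this depth.

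Igf2, the paternally expressed growth factor (chr7:142650766-142666816), had 0, 3 and 1 reads in vehicle and 5, 10 and 8 with NaCl. With mifepristone it had 2, 3 and 2 reads, and 6, 1 and 7 with both. The NaCl libraries of vehicle cells lay above the vehicle libraries, and those of mifepristone cells overlapped the libraries without NaCl. The highest level was 0.0389 FPKM, so Igf2 was not tested. The authors' deposited table gives it a log2 fold change of 1.29 for NaCl in control cells (adjusted p = 0.0153) and 0.53 in mutant cells (adjusted p = 0.394). Of the exonic bases of Igf2, 62.8% are shared with the overlapping gene Gm49394 on the same strand. Gm49394 is not among the genes the authors listed.

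**Figure D4:**
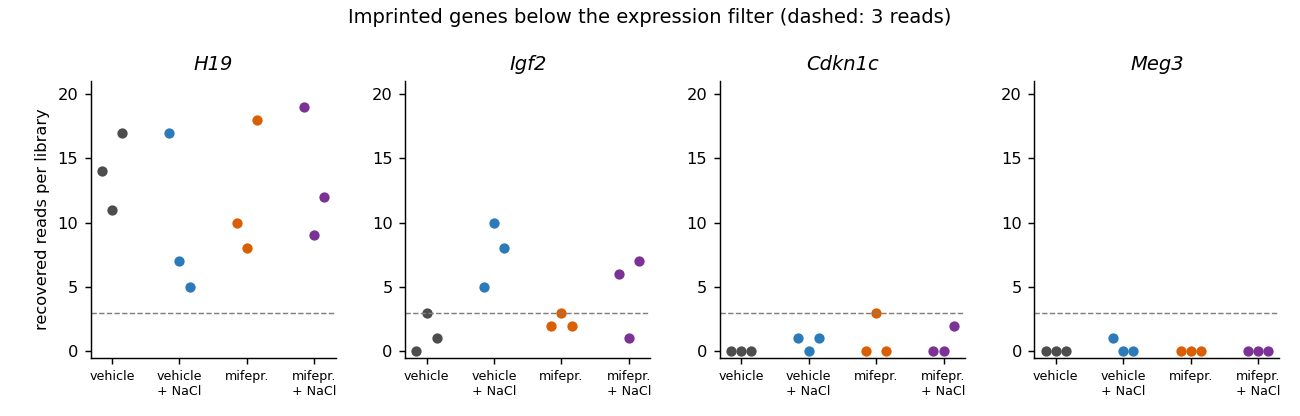
Recovered reads per library (vertical axes) of the 4 imprinted genes below the expression filter, by group (horizontal axes); the dashed line is at 3 reads. H19 has 5 to 19 reads, Igf2 0 to 10, and Cdkn1c and Meg3 stay at 3 or fewer.

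Set beside all tested genes, the 6 that passed the filter were called about as often as other genes in most comparisons; with so few genes this is a description. Mifepristone without NaCl changed all 6, Peg10, Peg3, Igf2r and Plagl1 up and Sgce and Grb10 down, where 28.3% of genes were called higher and 31.5% lower. Under NaCl mifepristone raised 1, Peg10, and lowered 3, Sgce, Peg3 and Grb10, where 26.8% of genes were called higher and 31.9% lower. NaCl raised Peg3 and lowered Peg10, Sgce and Grb10 in vehicle cells (25.2% of genes called higher and 31.5% lower). In mifepristone cells it raised none and lowered Peg10, Sgce, Igf2r and Grb10, where 24.5% of genes were called higher and 34.2% lower. Both treatments together against vehicle raised Peg3 and Plagl1 and lowered Sgce and Grb10, where 70.7% of genes were called, 31.3% higher and 39.5% lower. Mifepristone alone against NaCl alone had Peg10, Grb10 and Igf2r higher and Peg3 lower, where 63.6% were called, 33.0% higher and 30.6% lower. The Igf2r value there was 0.38 with overlapping groups (adjusted p = 0.0445, and 0.0627 with median-ratio scaling). Its adjusted p ran from 0.000268 to 0.149 over all 22 alternatives. The call was lost without mifepristone A (0.149) or B (0.148) or vehicle NaCl A (0.128), among others. The median change of the 6 genes was 0.35 with mifepristone (-0.01 over all tested genes) and -0.40 with NaCl in mifepristone cells (-0.06). Passing the filter is no property of the whole set, since 4 of the 10 did not. Sets of parental origin did not move as one, since of the paternally expressed genes Peg10, Peg3 and Plagl1 rose with mifepristone and Sgce fell, and of the maternally expressed ones Igf2r rose and Grb10 fell. In the authors' deposited table the mutant comparison and the interaction both have an adjusted p of 1.0 for Sgce, Peg3, Igf2r, Grb10 and Plagl1. Of the 6 only Peg10 has lower values (6.16e-107 and 7.61e-23). Yet the Peg3 interaction there is -1.14, while a Sgce change of -0.33 with NaCl in control cells has an adjusted p of 1.61e-11. The columns may thus rest on unlike tests, also unlike the test used here, and the 1.0 is not read as no change. That table marks a ChIP peak near Sgce, Igf2r, Grb10 and Plagl1, which is 4 of the 6 tested genes against 28.4% of all tested genes, and near none of the other 4 members below the filter.

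Among 64 other imprinted genes 26 were tested. Mifepristone without NaCl raised 8 and lowered 8 of them (median 0.01, against -0.01 over all genes), near the 28.3% higher and 31.5% lower over all genes. NaCl in vehicle cells raised 6 and lowered 11 (median -0.10, against -0.02), where 25.2% of all genes were higher and 31.5% lower. Dcn, which encodes the matrix proteoglycan decorin, averaged 0.0780 FPKM in vehicle and 5.69 with mifepristone (3.42, SE 0.069, adjusted p = 2.18e-11), and 2.98 with both treatments. Dcn also marks fibroblasts. The summed level of 10 fibroblast markers, Dcn among them, ran from 9.12 to 10.2 FPKM in vehicle and from 11.4 to 12.9 with mifepristone. Of the others only Vim passed the filter, and it fell by 0.55. The 8 others stayed below 1 FPKM in every library, with Col1a1 the highest at 0.110 to 0.257, then Acta2, up to 0.0735, and Pdgfrb, up to 0.0434. Lum averaged 0.00330 FPKM in vehicle and 0.0237 with mifepristone, and Acta2 0.00850 and 0.0235, neither tested. The part of these genes in the Dcn value was not tested. The receptor tyrosine kinase gene Axl changed by -0.94 with mifepristone (17.1 to 8.66 FPKM), and H13, an intramembrane protease gene, by -0.64 with mifepristone and by -0.64 with NaCl in vehicle cells. Gnas was listed at 0.472 to 0.689 FPKM, below the filter; its locus holds overlapping transcripts.

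Of 21 genes that set or keep imprints 16 were tested, and mifepristone without NaCl raised 3 and lowered 6 (median -0.03; 28.3% of all genes higher and 31.5% lower). Under NaCl it raised 2 and lowered 11 (median -0.33, against -0.03 over all genes, 26.8% called higher and 31.9% lower). Zfp57, the zinc finger protein that guards methylation at imprinted control regions, had 5.25, 4.99 and 5.05 FPKM in vehicle, 4.59, 4.52 and 4.50 with NaCl, 1.66, 1.61 and 1.6 with mifepristone, and 1.67, 1.92 and 1.79 with both. All 6 mifepristone libraries stood below all 6 vehicle libraries. Zfp57 fell by 1.40 without NaCl (SE 0.046, adjusted p = 7.01e-10) and by 1.14 with it (adjusted p = 3.12e-09). The de novo methyltransferase gene Dnmt3a changed by -0.67 without NaCl and by -1.23 with it (adjusted p = 3.93e-07), and Uhrf1, which brings the maintenance methyltransferase to DNA, by -0.55 and -0.59. Ezh2, the Polycomb methyltransferase gene, rose by 0.34 and 0.25. Methylation was not measured here.

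Of 23 other genes of the IGF and insulin axis, to which Igf2, Igf2r and Grb10 belong, 14 were tested. Mifepristone without NaCl raised 7 and lowered 1 (median 0.16; 28.3% of all genes higher and 31.5% lower), and NaCl in vehicle cells raised 6 and lowered 1 (median 0.13; 25.2% and 31.5%). NaCl in mifepristone cells raised 3 and lowered 7, where 24.5% of all genes were higher and 34.2% lower. Igfbp7, a secreted binding protein, averaged 147 FPKM in vehicle, 374 with NaCl, 259 with mifepristone and 901 with both, and NaCl raised it by 1.35 and 1.80 in vehicle and mifepristone cells. Irs2, the insulin receptor substrate, rose by 0.78 and 1.34 with NaCl, with an interaction of 0.56 (adjusted p = 0.00137). Gnptab, which makes the sugar tag that Igf2r binds on lysosomal enzymes, rose by 1.16 with mifepristone (6.03 to 14.2 FPKM, adjusted p = 7.68e-08) and by 0.96 under NaCl. Grb7, the relative of Grb10, fell by 0.61 with mifepristone and by 0.44 with NaCl in vehicle cells, so both adaptor genes were lower with each treatment.

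The 5 genes whose log2 levels followed Peg10 most closely over the 12 libraries were Fzd6, Eps8, Hoxb5os, Il6ra and Rarg, with Pearson r from 0.993 to 0.998. This is a description over libraries that share 4 groups and carries no test, and Fzd6 is listed under a second identifier with the same r. All 5 were highest with mifepristone alone and lowest with NaCl alone, as Peg10 was, which their choice by r largely fixes. Their sizes differed. With mifepristone Il6ra, the receptor chain for interleukin 6, changed by 1.94 (0.442 to 3.12 FPKM), Rarg, a retinoic acid receptor, by 1.24, Eps8, an actin regulator, by 0.91, the noncoding Hoxb5os by 0.85, and the Wnt receptor gene Fzd6 by 0.56, against 3.16 for Peg10. With NaCl in mifepristone cells the values were -1.73, -1.17, -0.99, -0.92 and -0.56 in the same order. Eps8 lies on chromosome 6, as Peg10 does, at chr6:137477245-137654876, and the other 4 lie on other chromosomes.

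**Figure D5:**
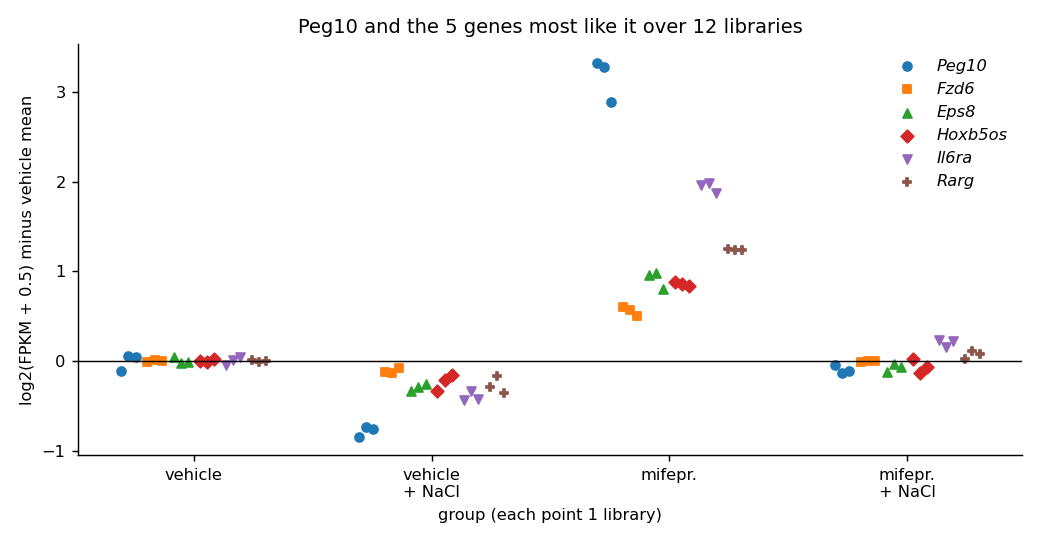
Log2 of FPKM + 0.5 minus the gene's vehicle mean (vertical axis) for Peg10 and the 5 genes most like it, in each library of the 4 groups (horizontal axis). All 6 are highest with mifepristone alone, and Peg10 covers the widest range, from 6.46 to 125 FPKM.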

How the data were processed

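Poly(A) RNA of IMCD3 53a cells was sequenced after TruSeq preparation, per the labels' protocols. The submitters' processing notes name DESeq2 1.12.3, SAMtools 1.0, STAR 2.4.2a and Trimmomatic 0.32, and the build GRCm38 (mm10). The counter and its strand setting are not named there. The authors deposited FPKM per library, and comparison tables with a mean normalized count (signal), adjusted p-values and log2 fold changes, per the file headers, plus a mark of a nearby ChIP peak. Control columns match the titles. The columns named for the mutant were matched to the mifepristone titles by NaCl, letter and knowledge of the study, and 0 columns were left without a sample.

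FPKM was multiplied by the ratio of the authors' deposited mean count to the gene's mean FPKM. Divided by a step fitted for each library (0.917 to 1.09), these products gave whole reads for 100.0% of values, within 0.05. The test was limma 3.58.1 (R 4.3.3), trended and robust, on log2(FPKM + 0.5) with 4 group means and 8 residual degrees of freedom; p-values were adjusted by Benjamini-Hochberg. It was tested on simulated counts with no transcript length trend and with changes placed only in genes with many reads. That setting does not cover low genes or the length trend seen here. Fold changes on this scale are understated for low genes. Coordinates come from GENCODE M21 (98.5% of identifiers matched). The 10 genes are always named, each list's up to 4 genes of smallest adjusted p, and the 5 genes most correlated with Peg10. Airn, Gnas, the tested neighbours of Peg10 and some marker genes were named outside this rule. The genes and lists were chosen with earlier results of these data known. Values of 1 further gene are not reported here. Alternatives were pseudocounts, filters, scalings, a replicate block, quality weights, voom on the recovered reads, and each library left out. Leaving out both vehicle A and mifepristone C was chosen after seeing the data. Python 3.11.15, pandas 2.3.3, numpy 2.4.6 and matplotlib 3.10.9 were used.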

Additional observations from a re-analysis of the deposited data

Results flagged for a closer look

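The effect of mifepristone differed with and without added NaCl, by the interaction term in limma, for 3 of the 6 tested imprinted genes. For Peg10 the difference was -2.48, since the gene rose by 3.16 without NaCl and by 0.69 with it. For Peg3 it was -1.11, from a rise of 0.74 without NaCl to -0.37 with it. For Grb10 it was -0.35, from -0.28 to -0.63. Of all tested genes 31.1% had an interaction past the threshold.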

How the results depend on the processing

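Each of the 6 tested genes was refitted under up to 22 alternatives in 7 comparisons. Of 917 values 868 stayed on their side of the threshold, 24 lost the call, 25 gained it, and 0 called values changed sign. The number of imprinted genes with an interaction was 3, and 5 with library quality weights and 5 without vehicle A and mifepristone C, when Igf2r and Plagl1 joined. Leaving out 1 library at a time, the numbers called were 5 to 6 for mifepristone without NaCl, 3 to 4 with NaCl, 4 to 5 for NaCl in vehicle cells, 3 to 4 in mifepristone cells, 3 to 4 for the interaction, 4 for both treatments against vehicle and 3 to 5 for mifepristone alone against NaCl alone. Genes of all kinds with an interaction numbered 4374, and 7156 with quality weights, 6739 without mifepristone C and 4321 by voom on recovered reads. Grb10 has no value at a filter of 5 FPKM. Scalings shifted the median change of all genes by at most 0.056. Same-letter libraries correlated at -0.5 to 0.29 over 18 pairs, 6 of them over 0.1, and 3 of 12 libraries correlated best with their own letter. The main test therefore used no pairing by letter. This check cannot exclude pairing, since vehicle A and mifepristone C, which share a transcript length trend, correlated at 0.61 across letters. With a replicate block mifepristone without NaCl called 6 of the imprinted genes, and the interaction called 3. The block gained the Plagl1 calls for mifepristone under NaCl (adjusted p = 0.0314), NaCl in vehicle cells (0.0145) and mifepristone alone against NaCl alone (0.0243), lost Igf2r in the last (0.0698), and changed no other call. Depth limits H19, Igf2, Cdkn1c and Meg3 to levels with no test.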

Other observations

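Cdkn1c was at the limit of detection, and 13 of 14 related genes, the other CDK inhibitors, G1 cyclins and their kinases, were tested. Mifepristone without NaCl raised 4 and lowered 6 of them, where 59.7% of all genes were called, and NaCl in vehicle cells raised 1 and lowered 6, where 25.2% of all genes were higher and 31.5% lower. Cdkn1a, the inhibitor induced by p53, averaged 65.2 FPKM in vehicle and 31.0 with mifepristone (-1.06, SE 0.056, limma adjusted p = 3.24e-08). Cdkn1b changed by 0.54 (36.8 to 53.6 FPKM) and Ccne2 by 0.94 (15.6 to 30.3 FPKM). Ccnd1 averaged 1.75 FPKM in vehicle and 0.186 with NaCl (-1.71, adjusted p = 2.45e-08).

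Of 12 genes of the sarcoglycan and dystrophin complex, to which Sgce belongs, 4 were tested. Sgcb, its partner subunit, changed by -0.40 with mifepristone (3.49 to 2.52 FPKM, adjusted p = 4.46e-05) and by 0.32 with NaCl in mifepristone cells. Sntb2, a syntrophin gene, went the other way, by 0.68 with mifepristone (5.72 to 9.54 FPKM, adjusted p = 0.000444) and by -0.31 with NaCl in mifepristone cells (adjusted p = 0.0414). In the latter the groups overlapped, with mifepristone C at 7.51 FPKM against 7.18 to 8.09 with both treatments. In vehicle cells NaCl gave -0.19 for Sgcb (adjusted p = 0.00749) and 0.25 for Sntb2, which was not called (adjusted p = 0.0875). Utrn, the dystrophin relative, was called in none of the 4 single-treatment comparisons (0.28 with mifepristone, adjusted p = 0.22). Dag1, the dystroglycan gene, was not called with mifepristone alone (0.03, adjusted p = 0.775) and changed by -0.74 under NaCl (adjusted p = 3.66e-05). Of 12 genes derived from retrotransposon gag sequences like Peg10, 3 were tested, and NaCl in mifepristone cells raised all 3, where 24.5% of all genes were called higher. Arc changed by 2.73 (3.85 to 28.4 FPKM), Rtl8b by 0.51 and Rtl8a by 0.43, while Peg10 fell by 3.26 in that comparison. The last pair are near-identical relatives whose reads the authors' counting may have split.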
